A study of Homo sapiens with 4 samples.

Results

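The subtelomeres of the autosomes, taken as the sequence 5 to 250 kb inside each chromosome end, held 2343 of the 361941 autosomal SAF-A peaks in 4 libraries. A peak was counted there when its summit lay in that distance range, and chromosome ends were placed at position 0 and at the largest peak end found on the chromosome. The start of chromosome 5 and the starts of the acrocentric chromosomes 13, 14, 15, 21 and 22 were left out, so 38 of the 44 autosomal ends were used. The next 250 kb inward from the same ends, called the inner flank, held 2708 peaks. The windows covered 9.31 Mb of subtelomere and 9.50 Mb of inner flank, on the hs1 human assembly. Ends are named here by chromosome and arm, with p for the start and q for the end of the sequence.

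SAF-A was profiled by CUT&Tag, a method in which a transposase, tethered to the protein by an antibody, cuts out the nearby DNA for sequencing. The cells were wild-type RPE1, an immortalised human retinal pigment epithelial line. The compared groups were 2 libraries of cells labelled as synchronised (M), called mitotic here, and 2 libraries of asynchronous cells, with replicates 3 and 4 in each group. Both groups shared the line, the genotype and the antibody, and the way of synchronising the cells is not stated in the labels. Nothing in the labels ties the replicates to separate cultures, and every p-value below therefore covers the spread among these 4 libraries alone, which may be technical.

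SAF-A, also called HNRNPU, is a plentiful protein of the nucleus that contacts both RNA and DNA and takes part in chromatin organisation. A subtelomere lies inside the array of telomere repeats and joins it to the unique sequence of the chromosome arm. In human cells its outer part is a patchwork of segments shared among several chromosome ends, with members of gene families such as the WASH, tubulin beta 8 and OR4F olfactory receptor families. A read from a shared segment can match several ends, and the sources used here do not tell how such reads were placed.

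Depth differed between the libraries. The genome background, which stands for relative depth, was 1.17 and 1.79 fragments in mitotic replicates 3 and 4, and 1.38 and 1.17 in asynchronous replicates 3 and 4. The autosomal lists held 76908 and 111887 peaks in mitotic cells and 98519 and 74627 in asynchronous cells. In both groups more depth went with more peaks, so densities were compared as ratios within a library.

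SAF-A peaks were about 2 times as dense in the subtelomeres as on the rest of the autosomes, in both cell states. The subtelomeres had 55.1 and 76.0 summits per Mb in the mitotic libraries (513 and 708 peaks) and 66.3 and 54.2 in the asynchronous libraries (617 and 505 peaks). All other autosomal sequence had 26.4 and 38.5 summits per Mb in the mitotic and 33.9 and 25.6 in the asynchronous libraries. The ratio was between 1.96 and 2.12 in all 4 libraries, with a mean of 1.02 ± 0.056 on the log2 scale (SD, n = 4; exact two-sided sign-flip test, p = 0.13, the smallest that 4 libraries allow).

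The same windows were less dense than the sequence next to them. The inner flanks had 58.9 and 87.6 summits per Mb in the mitotic libraries and 75.4 and 63.2 in the asynchronous libraries. The subtelomeres thus stood at 0.935 and 0.868 of their flanks in mitotic and at 0.879 and 0.859 in asynchronous cells. The mean log2 ratio was -0.18 ± 0.055 (SD, n = 4), and it was below 0 in 4 of 4 libraries (exact two-sided sign-flip test, p = 0.13).

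Density did not fall steadily towards the end. Averaged over the 4 libraries it was 68.4 ± 10.5 summits per Mb at 5 to 50 kb and 63.3 ± 13.2 at 50 to 100 kb (SD, n = 4). It was 58.0 ± 10.6 summits per Mb at 100 to 150 kb, 60.4 ± 8.69 at 150 to 200 kb and 65.0 ± 11.2 at 200 to 250 kb (SD, n = 4). The lowest mean was at 100 to 150 kb over all peaks and at 150 to 200 kb, with 13.4 ± 4.64 summits per Mb, over peaks with a -log10 q of at least 5. The outermost range exceeded the 200 to 250 kb range in both mitotic libraries, with 64.9 and 83.6 against 52.6 and 75.8 summits per Mb. In asynchronous replicate 3 the order was opposite, with 65.5 against 73.2, while asynchronous replicate 4 had 59.6 against 58.4. Further inward the mean reached 77.6 ± 14.3 summits per Mb at 500 to 1000 kb and was 37.4 ± 7.65 at 5000 to 10000 kb (SD, n = 4).

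**Figure D1:**
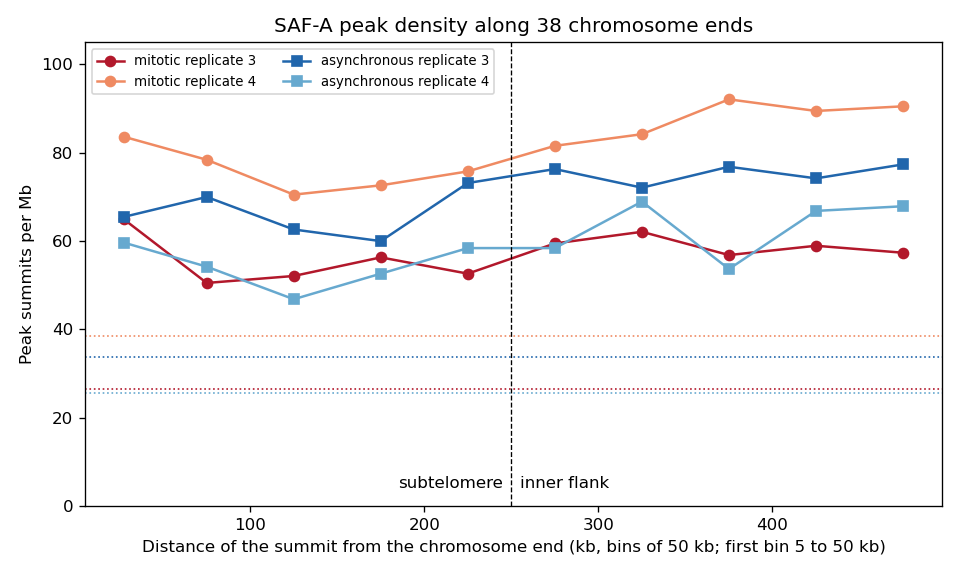
Peak summits per Mb (vertical axis) against distance from the chromosome end in kb (horizontal axis) over 38 ends, with 1 line per library (red circles mitotic, blue squares asynchronous). Dotted lines give each library's density on all other autosomal sequence, and every binned value of a library lies above its own dotted line.

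At the outer limit of the window the peaks changed in kind as well as in number. Under 5 kb from the end, a range left out here, all 38 ends had a peak in each library, with a median fold over local background of 12.3 and 12.7 in mitotic and 12.5 and 12.8 in asynchronous libraries. The fold is the authors' value for each peak. At the q ends the outermost peak of any list set the end itself, so a peak there is partly given by the rule. At 5 to 10 kb, a narrower range than those that follow, 7 and 6 peaks were listed in the mitotic and 6 and 6 in the asynchronous libraries. Their median folds were 3.30 and 2.72 against 2.82 and 3.67. At 10 to 20 kb there were 26 and 29 mitotic and 21 and 20 asynchronous peaks, with median folds of 3.63 and 3.65 against 3.46 and 3.89. Just inside the inner limit, at 240 to 250 kb, there were 15 and 23 mitotic and 20 and 20 asynchronous peaks, and just outside it, at 250 to 260 kb, there were 23 and 36 mitotic and 33 and 23 asynchronous peaks.

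Chromosome ends differed widely in peak density, in the same order in every library to a large extent. The mean density over the 4 libraries ran from 0 to 129.6 summits per Mb, with a median of 64.8 over the 38 ends. The 10 richest ends held 46.5% of the 2343 peaks and the 10 poorest held 5.42%. Spearman correlations between libraries across the 38 ends were 0.917 to 0.952, for ends that share the assembly, the antibody and the peak caller. End density had a Spearman correlation of 0.595 with the density of its inner flank and of 0.433 with that of the rest of its chromosome, both across the same 38 ends and as a description only.

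The richest end was 20q, with 23 and 37 peaks in mitotic and 35 and 32 in asynchronous libraries, or 129.6 ± 25.2 summits per Mb (SD, n = 4). In the RefSeq gene order of GRCh38.p14 its outermost protein-coding genes are PCMTD2 and MYT1, which encodes a zinc finger factor of neural cells. Such names give the neighbourhood of an end only, since that assembly is not hs1 and no peak was assigned to a gene. End 17p followed with 25 and 43 mitotic and 32 and 26 asynchronous peaks (128.6 ± 33.7 summits per Mb). Outermost genes of 17p include DOC2B and RPH3AL, which act in vesicle release. End 22q had 28 and 36 mitotic and 29 and 29 asynchronous peaks (124 ± 15.1 summits per Mb), and it is the end with RABL2B and, further in, SHANK3, a scaffold of synapses. End 17q, with METRNL and TBCD, a tubulin folding factor, had 22 and 33 mitotic and 30 and 30 asynchronous peaks (117 ± 19.3 summits per Mb). End 19q, where MZF1, UBE2M, CHMP2A and the silencing cofactor TRIM28 lie, had 28 and 30 mitotic and 28 and 27 asynchronous peaks (115 ± 5.14 summits per Mb; each SD, n = 4). The ranges of these 5 ends overlapped, so their order is not resolved.

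The poorest ends were nearly free of peaks in every library. End 4p, with ZNF595 and ZNF718, which encode zinc finger proteins, had no peak in any library. End 3p, next to the cell adhesion genes CHL1 and CNTN6, had 0 and 0 mitotic and 0 and 1 asynchronous peaks. End 11q, outside the glycan-synthesis gene B3GAT1, had 1 and 0 mitotic and 1 and 1 asynchronous peaks. End 4q, which carries FRG1, FRG2 and the D4Z4 repeats known from facioscapulohumeral dystrophy, had 1 and 2 mitotic and 1 and 2 asynchronous peaks. End 8p had 4 and 3 mitotic and 1 and 1 asynchronous peaks. The inner flanks of 4p, 3p, 11q and 4q were poor too, with 1 to 3 peaks per library, while that of 8p had 4 to 7. A peak that is missing in such a window was not detectable at this depth, and the share of these sequences that reads can be placed on was not measured.

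The contrast with the inner flank was not shared by all ends. In 17 of 38 ends (44.7%) the subtelomere was less dense than its flank in all 4 libraries, where 19.9% of all neighbouring pairs of such windows on the autosomes had the outer one lower in all 4. In 7 ends (18.4%) it was denser in all 4, against 19.6% of all pairs. Among these 7, 12p had 19 peaks in both windows in asynchronous replicate 4 and counts as denser there only because its subtelomere window is 5 kb shorter than its flank. The remaining 14 ends were mixed. The 17 include 4p and 3p, which held 0 or 1 subtelomere peak per library. The autosomal pairs were not matched to these windows for peak density, so their shares are not a like-for-like base rate. The 10q end was among those with the widest gap below its flank, with 2 and 7 mitotic and 10 and 7 asynchronous peaks, against 18 and 30 mitotic and 27 and 26 asynchronous peaks in the flank. End 20p, which carries the beta-defensin genes DEFB125 to DEFB129, had 7 and 13 mitotic and 7 and 7 asynchronous peaks, against 19 and 30 mitotic and 26 and 19 asynchronous peaks in its flank. These flank contrasts of 10q and 20p, and those of 1q and 14q given next, were singled out after they had been seen.

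The 7 ends denser than their flanks were 1q, 6q, 12p, 14q, 17p, 17q and 19q. At 1q the subtelomere held 10 and 12 mitotic and 12 and 9 asynchronous peaks, and the flank held 0 and 2 mitotic and 1 and 0 asynchronous peaks. In the RefSeq order the 1q end carries PGBD2 and the zinc finger genes ZNF692 and ZNF672, and olfactory receptor genes lie inward of them. At 14q, the arm that ends with the immunoglobulin heavy chain locus, the subtelomere held 5 and 5 mitotic and 5 and 2 asynchronous peaks, and the flank 0 and 2 mitotic and 2 and 0 asynchronous peaks. At 19q the flank held 15 and 18 mitotic and 18 and 16 asynchronous peaks, against 27 to 30 in the subtelomere.

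**Figure D2:**
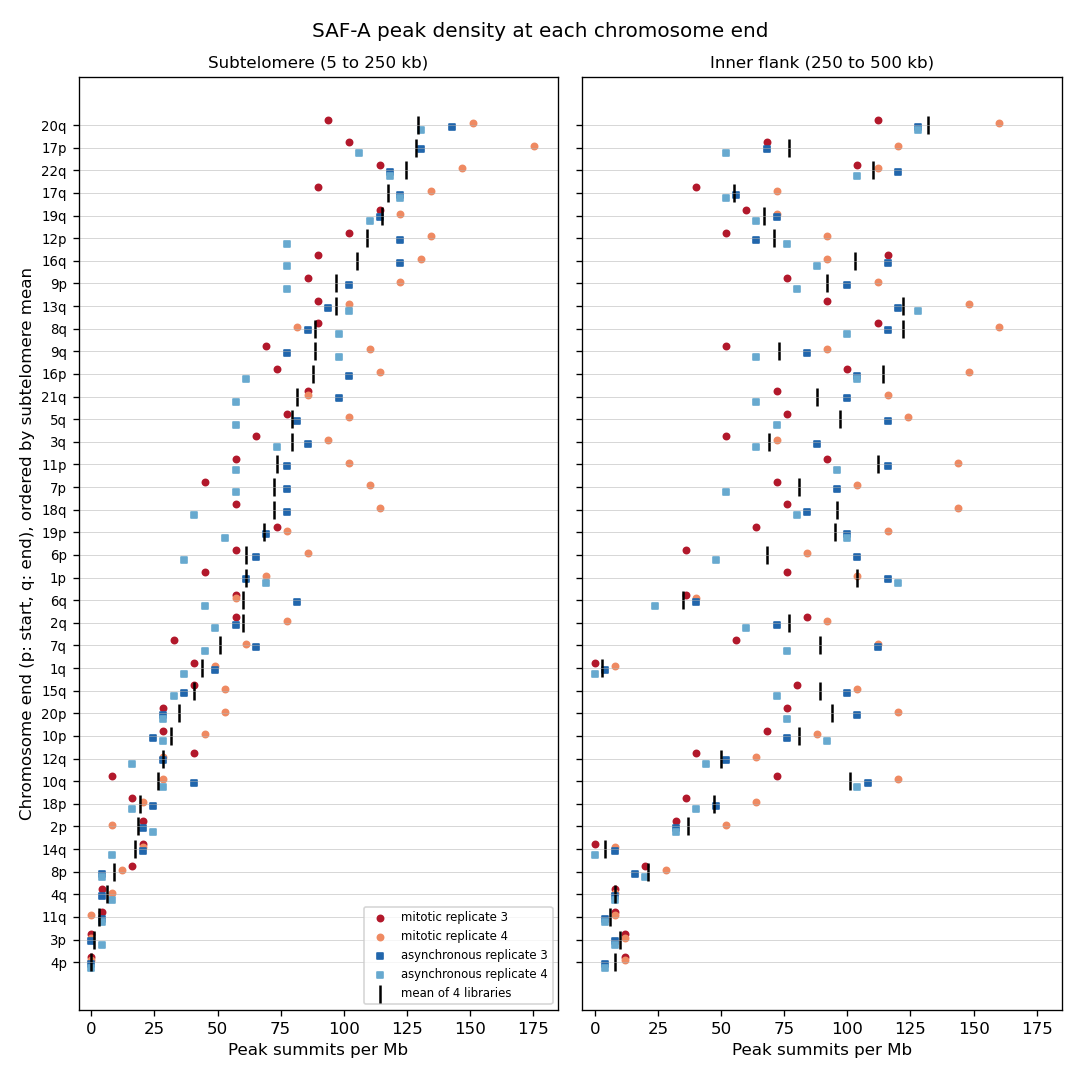
Peak summits per Mb (horizontal axes) at each of 38 chromosome ends (rows), in the subtelomere (left) and the inner flank (right), with 1 point per library and a black bar for the mean of 4 libraries. Subtelomere means run from 0 at 4p to 129.6 at 20q, and the flanks of 1q and 14q are nearly empty although their subtelomeres are not.

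Peaks in the subtelomeres were of ordinary size. Their median fold was 3.91 and 3.59 in mitotic and 3.78 and 3.88 in asynchronous libraries, and their median width was 314 and 338 bp in mitotic and 329 and 301 bp in asynchronous libraries. Ranked by fold within each list, the median subtelomere peak lay at percentile 48.7 and 47.0 in mitotic and 52.8 and 49.4 in asynchronous libraries, against 45.4 and 42.6 in mitotic and 48.2 and 44.9 in asynchronous libraries for the inner flanks. The difference to the flank was 4.22 ± 0.611 percentile points (SD, n = 4) and positive in 4 of 4 libraries (exact two-sided sign-flip test, p = 0.13). Over peaks with a -log10 q of at least 5 it was 1.95 points. Width differed from the flank by 1.75 ± 6.40 bp (SD, n = 4), which is within the spread between libraries (exact two-sided sign-flip test, p = 0.875). The local background under the peaks was raised. Its median was 1.99 and 1.96 times the genome background in mitotic and 1.93 and 2.02 times in asynchronous subtelomeres. In the inner flanks it was 2.13 and 2.05 times in mitotic and 2.09 and 2.39 times in asynchronous libraries. On all other sequence it was 1.65 and 1.66 times in mitotic and 1.64 and 1.80 times in asynchronous libraries. The part of this background in the ranks was not tested.

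Peaks of the 4 lists that overlapped by at least 1 bp were merged, which gave 1371 subtelomere regions. Of these, 145 (10.6%, 95% Wilson interval 9.06% to 12.3%, counting error only) had a peak in all 4 libraries, where 8.39% of all autosomal regions had. With peaks of a -log10 q of at least 5 the share was 20.9% (16.8% to 25.6%), against 22.02% on all other sequence. With lists of equal length it was 11.5% (9.81% to 13.5%), against 10.1%, and with a reciprocal overlap of 50% it was 6.35% (5.17% to 7.76%), against 5.74%. Under each of these 3 settings the subtelomere interval includes the share on all other sequence. The inner flanks had 182 of 1617 such regions (11.3%, 9.81% to 12.9%), an interval that overlaps that of the subtelomeres. Regions with a peak in 1 library made up 63.7% of the subtelomere regions, against 65.5% in the flanks and 71.8% on all other sequence. With lists of equal length these shares were 63.1%, 63.7% and 69.8%. The order was not kept at a -log10 q of at least 5, where they were 52.5%, 50.1% and 50.5%. The 145 shared regions lay on 32 ends at a median distance of 123 kb, and 14 of them were at 19q and 11 at 22q. They were 840 bp wide at the median, against 788 bp in the flanks and 756 bp over all other shared regions. Their median summits were lower than those over all other shared regions in each library. They had 18 and 30 fragments in mitotic and 22 and 20 in asynchronous libraries, against 20 and 33, and 25 and 21. None of the 48 regions at 6p was among the 145.

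None of the 10 strongest shared subtelomere regions passed the test between the states, and in 6 of them the scaled heights of the groups overlapped. Over all shared autosomal regions, both mitotic libraries were above both asynchronous ones in 17.1% and below them in 20.2%. Ranked by mean percentile of fold, the first was at 9p, chromosome 9 from 123897 to 124091, with 2835 and 5578 fragments at the summit in mitotic and 3624 and 2905 in asynchronous libraries. It stood at 155 ± 19.3 times the median summit of shared regions in mitotic and at 142 ± 4.69 times in asynchronous cells (SD, n = 2 each). No other shared subtelomere region exceeded 116 fragments in any library. Over the 4 libraries the height at this 9p region had an SD of 0.052 log2 units against the highest mitochondrial summit and of 0.13 against the shared-region median, and the part of mitochondrial DNA in it was not tested. The spread was smaller against the mitochondrial summit in 54 of the 145 shared subtelomere regions, 9p included, and in 36.1% of all shared regions.

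The next regions were far lower than the top-ranked region, but most stood above the median summit of shared regions in every library. The exception was the region on chromosome 12, which was above that median in the mitotic libraries only. At 21q, chromosome 21 from 45021377 to 45022457 had 53 and 75 fragments in mitotic and 42 and 36 in asynchronous libraries, or 2.46 ± 0.267 and 1.70 ± 0.024 times the shared median. At 22q, chromosome 22 from 51199428 to 51200211 had 64 and 94 mitotic and 71 and 68 asynchronous fragments, or 3.02 ± 0.249 and 3.04 ± 0.281 times. At 19q, chromosome 19 from 61641321 to 61642066 had 71 and 116 mitotic and 107 and 65 asynchronous fragments, or 3.53 ± 0.025 and 3.69 ± 0.838 times (SD, n = 2 each). The groups overlapped at 22q and 19q and did not at 21q. At 17p, chromosome 17 from 120613 to 121232 had 24 and 65 mitotic and 40 and 34 asynchronous fragments. The region at 7p, chromosome 7 from 249725 to 250216, had 31 and 45 mitotic and 30 and 38 asynchronous fragments, and with its summits at 249.95 kb from the end it lay near the limit of the window. The other 4 of the 10 were on chromosome 8 from 146201816, chromosome 12 from 133187058, chromosome 1 from 248344524 and chromosome 16 from 96163445. Their summits ran from 22 to 92 fragments in mitotic and from 17 to 50 in asynchronous libraries.

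The share of a library's summits that lay in the subtelomeres differed between the cell states by less than the spread between libraries. It was 0.667% and 0.633% in the mitotic and 0.626% and 0.677% in the asynchronous libraries, with means of 0.650 ± 0.024% in mitotic and 0.651 ± 0.036% in asynchronous cells (SD, n = 2 each; exact two-sided permutation test, p = 1). With 2 libraries against 2 the smallest exact p is 0.33. The ratio of subtelomere to flank differed between mitotic and asynchronous cells by 0.052 log2 units, with group means of -0.15 ± 0.075 and -0.20 ± 0.024 (SD, n = 2 each; exact two-sided permutation test, p = 0.667).

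No subtelomere passed the test for a difference in covered sequence between the states. Of 36 subtelomere windows with a summit in at least 2 libraries, 0 passed limma with Benjamini-Hochberg adjustment over all 9143 autosomal windows, where 0 (0%) passed in all. At an unadjusted p under 0.05 there was 1 subtelomere window (2.78%) against 5.95% of all windows. The median difference was 0.018 log2 units over the subtelomere windows and 0.022 over all windows, and it ran from -0.65 to 1.43. The mitotic libraries were both above the asynchronous ones in 1 subtelomere window, against 18.5% of all windows, and both below in 5 (13.9%), against 16.1% of all windows.

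The window with the largest rise was 8p, a poor end, with 42.5 and 26.2 bp of peak per Mb of covered sequence in mitotic and 5.05 and 7.41 in asynchronous libraries. The difference was 1.43 log2 units (SE 0.55, limma adjusted p = 0.823), after 10 was added to each value. It rests on 4 and 3 mitotic against 1 and 1 asynchronous peaks, and it was 0.34 when 100 was added to each value and 2.27 when 1 was added. Ends 12q and 20p came next at 0.41 (SE 0.35) and 0.33 (SE 0.35), and with peaks of a -log10 q of at least 5 they stood at -0.11 and 1.66. In the other direction were 10q at -0.65 (SE 0.39), 11q at -0.51 (SE 0.57) and 7q at -0.49 (SE 0.32). The direction was not kept at 10q with the stricter q, where it was 1.59, or at 7q without mitotic replicate 3, where it was 0.0071. RPE1 cells are known to carry a gain of part of the long arm of chromosome 10, which both groups share. At 10q the covered sequence was 37.3 and 58.8 bp per covered Mb in mitotic and 80.3 and 78.4 in asynchronous libraries. At 11q the value rests on 1 and 0 mitotic against 1 and 1 asynchronous peaks.

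**Figure D3:**
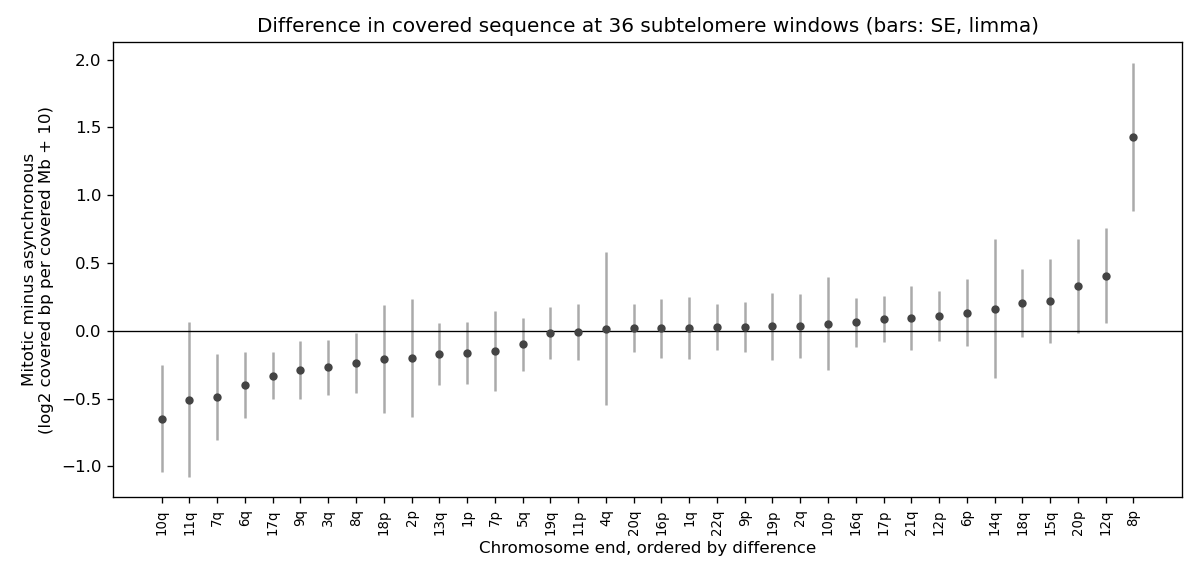
Mitotic minus asynchronous difference in covered sequence (vertical axis, log2 of covered bp per covered Mb plus 10) for 36 subtelomere windows (horizontal axis, ordered by difference), with bars of 1 SE from limma. Most lie within 0.5 log2 units of 0, and 8p stands at 1.43 with the few peaks of that end.

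Among summit heights at the shared regions of the subtelomeres, no difference passed the test either. Each height was first scaled to the median height of shared regions in its library, which removes any change common to all of them. Of the 145 subtelomere regions, 0 passed limma with Benjamini-Hochberg adjustment over all 19822 shared autosomal regions, of which 13 (0.0656%) passed. At an unadjusted p under 0.05 there were 11 (7.59%), against 8.93% of all shared regions. The difference between mitotic and asynchronous means was at most 0.5 log2 units in 91.7% of the subtelomere regions and in 89.4% of all shared regions. Both mitotic libraries were above both asynchronous ones in 26 regions (17.9%, against 17.1% of all shared regions) and below them in 19 (13.1%, against 20.2%).

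The largest fall was at 16q, chromosome 16 from 96081126 to 96082318, with 20 and 40 fragments in mitotic and 48 and 40 in asynchronous libraries (-0.80 log2 units, SE 0.24, limma adjusted p = 0.165). Its scaled heights did not overlap between the groups, and its summits lay just inside the window limit at 249 kb. It was followed by chromosome 8 from 146120802 to 146121362 at -0.61 (13 and 18 mitotic, 24 and 18 asynchronous fragments) and chromosome 5 from 181947847 to 181949385 at -0.60 (15 and 24 mitotic, 30 and 22 asynchronous fragments). The largest differences upward were 0.65 log2 units at 22q, chromosome 22 from 51288566 to 51289495, with 17 and 26 mitotic and 13 and 11 asynchronous fragments, and 0.64 at 21q, chromosome 21 from 44896021 to 44896605, with 33 and 41 mitotic and 21 and 21 asynchronous fragments. A region at 17p, chromosome 17 from 27418 to 28150, also stood at 0.64, with 23 and 36 mitotic and 15 and 18 asynchronous fragments. Chromosome 5 from 181806159 to 181806898 had the same difference, with 23 and 40 mitotic and 15 and 20 asynchronous fragments. Their start positions alone put 17p first. SEs of the regions named after 16q ran from 0.26 to 0.32, and none passed.

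**Figure D4:**
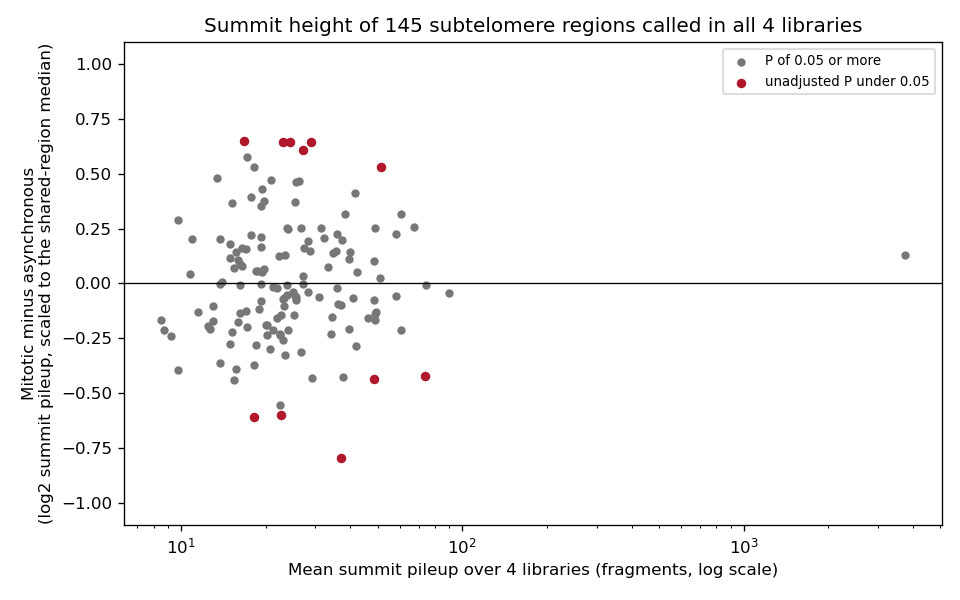
Mitotic minus asynchronous difference in scaled summit height (vertical axis, log2) against mean summit pileup in fragments over 4 libraries (horizontal axis, log scale) for 145 subtelomere regions called in all 4 libraries. Red points are the 11 regions with an unadjusted limma p under 0.05, and the point at the far right is the 9p region.

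Over the full lists, regions called in both libraries of 1 state and in neither of the other made up shares of the subtelomere regions whose intervals include the share over all autosomes. There were 39 mitotic-only regions (2.84%, 95% Wilson interval 2.09% to 3.86%), against 2.81% of all autosomal regions, on 21 ends. There were 22 asynchronous-only regions (1.60%, 1.06% to 2.42%), against 1.67% of all regions, on 17 ends. With lists of equal length the numbers were 26 (2.25%) mitotic-only and 27 (2.34%) asynchronous-only, against 2.71% and 1.98% on all other sequence. At a -log10 q of at least 5 they were 14 (4.29%) and 8 (2.45%), against 4.25% and 1.01%. At that q the asynchronous-only interval, 1.25% to 4.77%, lay above the share on all other sequence. Such a region only lacks a called peak in the other state. The lists give no signal for that state there, so a difference was not tested. The strongest mitotic-only region was at 2q, chromosome 2 from 242461612 to 242461939, with 28 and 58 fragments, at percentiles 97.7 and 99.5 of the 2 mitotic lists. It was followed by 1p, chromosome 1 from 58102 to 58577, with 17 and 22 fragments, and 22q, chromosome 22 from 51270227 to 51270783, with 14 and 19. The other 2 were on chromosome 14 from 101040389 (9 and 13 fragments) and chromosome 15 from 99730870 (16 and 16 fragments). The strongest asynchronous-only regions were at 3q, chromosome 3 from 200934540 to 200935037, with 16 and 16 fragments, at 7q, chromosome 7 from 160379428 to 160379667, with 17 and 17, and at 1p, chromosome 1 from 95901 to 96155, with 16 and 19. Those on chromosome 6 from 222244 (14 and 10 fragments) and chromosome 20 from 66157811 (10 and 10 fragments) completed the 5.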

How the data were processed

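Per the labels' protocols, each CUT&Tag assay started from 100000 cells and an anti-SAFA antibody, received 1 pg of E. coli DNA as a spike-in, and was read in pairs of 150 bases. The submitters' processing notes name build hs1 and the tools Bowtie2, MACS2, fastp and bedtools; the sources used here do not give versions, parameters, a control, the handling of duplicates or the placing of reads that match several sites. The authors deposited 1 peak list per library. The deposited fold ratio, -log10 p and -log10 q and score are the authors' values for each peak, and fold and q were used only to rank or filter peaks within a list.

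Summit pileups were recovered from the deposited fold and p by solving the peak caller's relations, and all pileups under 200 came out whole within 0.05. The genome background of a library is the lowest local background in its list. Library totals were not used here, so depth is known only relatively.

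Covered sequence in windows of 250 kb, tiled from both ends of each autosome, was tested with limma 3.58.1 (trended prior) after scaling to each Mb that a library's peaks cover, adding 10 and taking log2, in windows with a summit in at least 2 libraries. A second fit of this kind used log2 summit pileups, scaled to their median in each library, at regions that all 4 lists call. The threshold was an adjusted p of 0.05. Both fits and the pileup recovery were tested on simulated data. The simulated shared regions varied by counting error only, without further spread between replicates. How small a difference the fit could find in these libraries is therefore not known from them. Python 3.11.15 and R 4.3.3 were used.

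Named ends are the 5 with the highest and the 5 with the lowest mean density and the 3 with the largest difference each way. Named regions are the 10 shared regions with the highest mean percentile of fold, the 3 with the largest difference each way and the 5 strongest regions of each state. The members, lists and rules were chosen with earlier results of these data known. No hs1 gene annotation or genome sequence was used here, so gene names give the RefSeq order of GRCh38.p14 only and the planned description of sequence content was not run. Alternatives were a stricter q, lists of equal length, covered bases, windows from 20 kb, other pseudocounts, filters, scalings and priors, a reciprocal overlap of 50%, a block for the replicate number, and fits without each library in turn.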

Additional observations from a re-analysis of the deposited data

Results flagged for a closer look

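At 3 ends the density of the subtelomere lay on opposite sides of that of its inner flank in the 2 cell states, and the difference between the states was not tested for any of them. How often other neighbouring windows on the autosomes split in this way was not counted, so the number of ends has no base rate beside it. Each split includes libraries with equal peak numbers in subtelomere and flank, which differ in density only because the subtelomere window is 5 kb shorter: mitotic replicate 4 at 6p (21 and 21 peaks), asynchronous replicate 4 at 20q (32 and 32) and both asynchronous libraries at 11q (1 and 1). At 6p the subtelomere exceeded its flank by 21.1 and 1.71 summits per Mb in the mitotic libraries and fell short of it in both asynchronous libraries, with differences of -38.7 and -11.3, so that the states differed by 36.4 summits per Mb. At 20q the differences were -18.1 and -8.98 in mitotic and 14.9 and 2.61 in asynchronous libraries, which set the states apart by -22.3 summits per Mb. At 11q they were -3.92 and -8.00 in mitotic and 0.0816 and 0.0816 in asynchronous libraries, a gap of -6.04 that rests on 0 or 1 subtelomere peak per library.

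Peaks also lay in sequence that the comparisons left out. All 38 ends had a peak under 5 kb from the end in each library, where the median pileup was 117 and 204 fragments in mitotic and 134 and 129 in asynchronous libraries. For the q ends this is partly given by the rule, since the outermost peak of any list set the end. At the start of chromosome 5 the 5 to 250 kb range held 25 and 53 peaks in mitotic and 40 and 50 in asynchronous libraries, a mean of 42.0.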

How the results depend on the processing

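The subtelomeres stayed denser than the rest of the autosomes and less dense than their flanks under all alternatives. These were the stricter q, equal list lengths, covered bases, windows from 20 kb, and each library left out. With a library left out, the log2 ratios ran from 1.00 to 1.04 and from -0.20 to -0.16. The log2 ratio to the rest of the autosomes was 0.998 at the stricter q and 1.13 over covered bases. The ratio to the flank was -0.27 at the stricter q and -0.15 over covered bases. The mitotic minus asynchronous share had no stable sign, with -0.0268 to 0.0236 percentage points over libraries left out. The mitotic minus asynchronous difference in the ratio to the flank was -0.020 at a -log10 q of at least 5, and -0.0012 to 0.11 with a library left out. Width relative to the flank ran from -1.33 to 3.33 bp with a library left out, and was 7.38 bp at the stricter q and 5.62 bp in windows from 20 kb, against 1.75 bp. The rank difference to the flank was 1.95 percentile points at the stricter q, against 4.22. The log2 ratio of the outermost to the fifth bin was 0.079, and -0.14 at the stricter q. Ends below their flank in every library numbered 17 to 21 with a library left out, and ends above it 7 to 10; these counts were added after seeing the data.

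No window passed under any alternative. The 13 shared regions that passed over all autosomes became 0 when scaled to the genome background or without the trend in the prior, 3 at the stricter q, and 1 to 17 with a library left out (1 when mitotic replicate 3 was dropped, 6 for asynchronous replicate 3 and 3 for asynchronous replicate 4), and no subtelomere region passed under any of these. Regions in all 4 libraries made up 20.9% at the stricter q and 6.35% with a reciprocal overlap of 50%, against 22.02% and 5.74% on all other sequence. With the replicate block, 0 windows and 13 shared regions passed. Deviations of equally numbered libraries had correlations of 0.019 over windows and -0.050 over shared regions, so the numbers were not taken as pairs. At single ends the window difference was -0.11 at 12q, 1.66 at 20p and 1.59 at 10q at the stricter q, and -0.98 to 0.0071 at 7q with a library left out, the sign changing without mitotic replicate 3. The cause of these changes was not tested.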
